A study of Solanum lycopersicum with 39 samples.

Results

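Of the 34075 genes listed in both expression tables of tomato leaves, 35 were chosen because their expression level was high after 24 h at 42 °C, had not been raised at 2 h, 4 h or 12 h, and was changed little by 5 d of drought. The choice was made on group mean FPKM (sequenced fragments scaled to transcript length and library size), as L = log2(mean + 1) and the difference D of L from the untreated group of the same table. A gene was taken with a mean of at least 5 FPKM at 24 h, D of at least 2.5 at 24 h, D under 1 at 2 h, 4 h and 12 h, and D from -1 to 1 at 5 d of drought. The genes were thus selected on these values of 0 h to 24 h of heat and of 0 d and 5 d of drought, which are given here as a description with no test. A mean of 5 FPKM at 24 h was met by 10206 genes, D of 2.5 at 24 h by 437 of them, and the limit at the earlier times by 66 of those. Of these 66 genes, 25 had D above 1 at 5 d of drought, 6 had D below -1, and 35 were left.

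Leaves of tomato (*Solanum lycopersicum*) cultivar M82, given as sensitive to both stresses in the submitters' design text, were taken in a heat series of 18 libraries and a drought series of 21 libraries, with 3 libraries per group. In the heat series, plants with fully watered soil were untreated (0 h, at 25 °C and 70% humidity), were kept at 42 °C and 90% relative humidity for 2 h, 4 h, 12 h or 24 h, or were put back to 25 °C and 70% humidity for 1 d after the 24 h (recovery). In the drought series, plants at 25 °C and 70% humidity were taken when the soil held about 80% of its water (0 d), after 1 d to 5 d from that point, and 1 d after water was given again (re-watered). The labels give an age of 38 d for all plants, while the methods of the study give a younger age for the heat series. Untreated plants of the later times of day were not part of either series, so the length of a treatment and the hour or plant age at sampling cannot be told apart. A lower level in a leaf sample could reflect fewer cells of a type or less RNA per cell, and these cannot be told apart in such samples. The libraries of a group carry replicate numbers, and p-values measure the spread between them.

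Leaves that are suddenly heated first make chaperones, the heat shock proteins, under heat shock transcription factors, and this response is known to start within minutes and to weaken as the heat goes on. Long heat adds slower responses, among them the loss of chlorophyll and the breakdown of proteins and membranes, and many genes of such responses are shared with drought, where the hormone abscisic acid carries much of the signal. No symbol or product could be matched to the gene IDs of the files, so the 35 genes are given by ID, and nothing is said of what they encode. In these IDs the digits after Solyc give the chromosome (00 for sequence placed on no chromosome), and the digit after the point gives the version of the gene model.

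The tables hold FPKM and no fragment counts, so the depth behind a value is unknown. The FPKM of a heat library summed to 559548 to 895476, and 12028 to 13550 of the listed genes were at 0 in a heat library. The most genes at 0 in the heat series, 13550, were in replicate 3 of 24 h. In the drought series 13889 genes were at 0 in replicate 2 of 3 d, against 10819 to 12054 in the other libraries. A gene listed at 0 can be a failed estimate: 232 genes of the heat series and 136 of the drought series were at 0 in 1 library of a group and at 5 FPKM or more in both others. The 22 light-harvesting antenna genes of the study's list, which mark green leaf cells, had a median group mean of 1630 FPKM at 0 h (range over genes 150.2 to 5923), 20.7 FPKM at 24 h of heat and 359 FPKM in recovery. Their median was 921 FPKM at 0 d of drought, 9.75 FPKM at 5 d and 1095 FPKM after re-watering. The low antenna levels thus occurred in both stresses, and their part in the values below was not tested.

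The 35 genes fell into 18 that were above 0 FPKM in all 3 libraries of 24 h and 17 that were above 0 in only 1 or 2 of them, a division made after the values were seen. In each of the 18, all 3 libraries of 24 h lay above all 12 libraries of 0 h, 2 h, 4 h and 12 h. This separation was found in 5.37% of the 18923 genes that reached 1 FPKM in 3 or more heat libraries, and for the 18 genes it was largely set by the way they were chosen. In the 17 others the mean of at least 5 FPKM at 24 h came from a high value in 1 or 2 libraries beside values of 0. The heat map of all 35 genes shows both kinds.

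**Figure D1:**
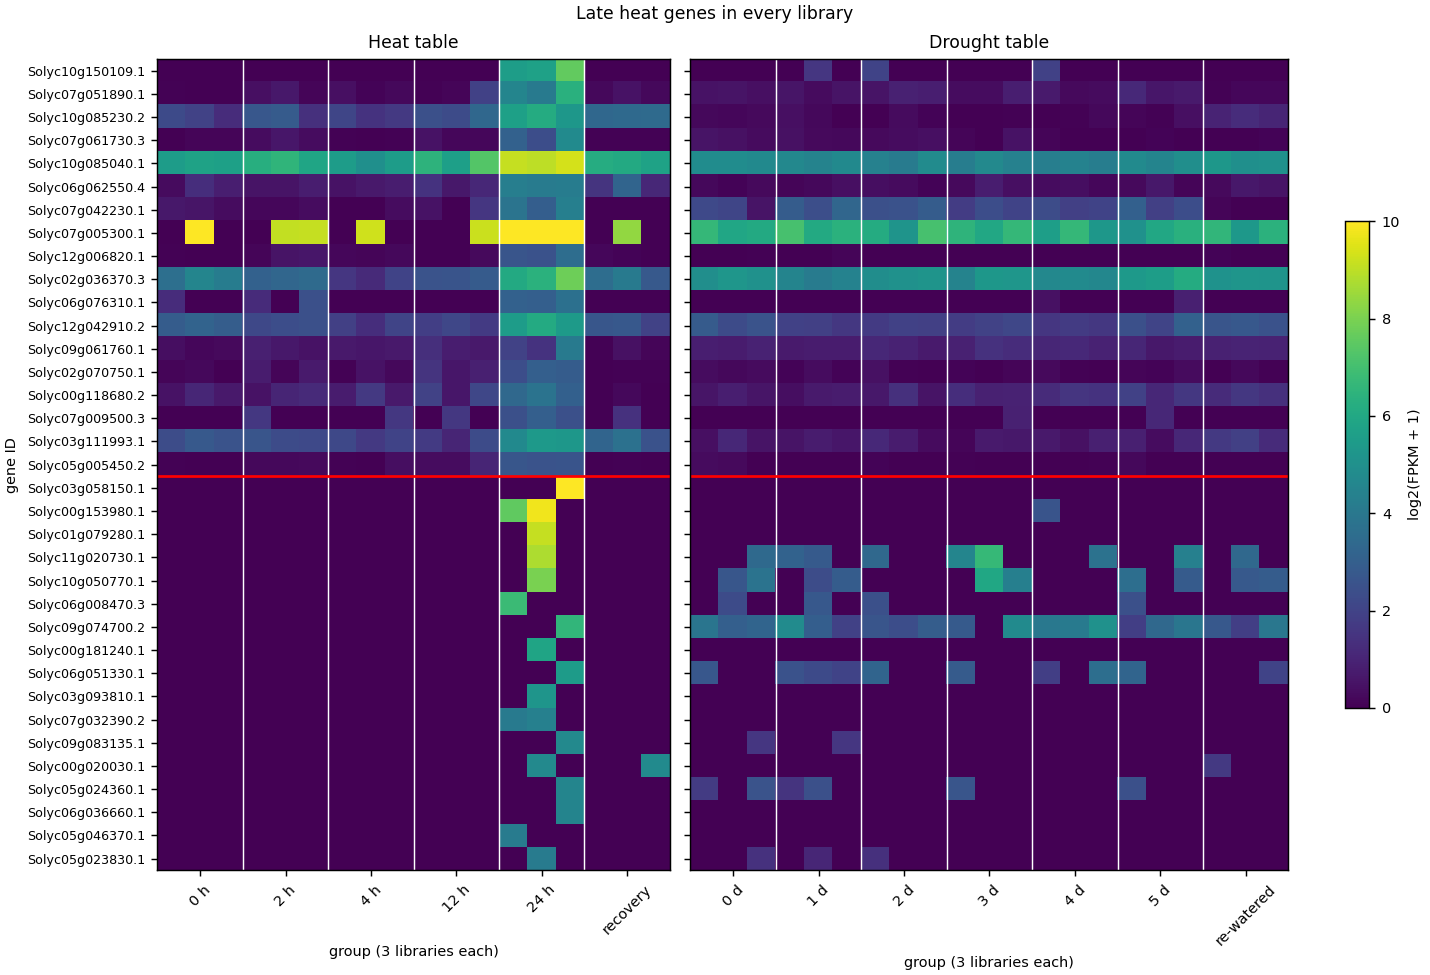
Expression level of the 35 genes (rows, by ID) as log2(FPKM + 1) in each library of the heat table (left, 18 columns) and the drought table (right, 21 columns), with 3 libraries per group and colours that stop at 10. Above the red line are the 18 genes above 0 in all 3 libraries of 24 h of heat, and below it the 17 genes above 0 in 1 or 2 of them, all of which were at 0 in the 12 libraries of 0 h to 12 h.

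Among the 18 genes, 6 had a mean of at least 1 FPKM before heat. Solyc10g085040.1 was high in every library and reached 555, 509.6 and 646 FPKM in the 3 libraries of 24 h. Its libraries of 0 h held 45.4, 52.8 and 50.3 FPKM, and those of 12 h 88.5, 49.5 and 161 FPKM. The mean was 49.5 ± 3.77 FPKM at 0 h and 570.2 ± 69.5 FPKM at 24 h (SD, n = 3), a ratio of 11.5. Replicate 3 of 12 h was thus above the other libraries before 24 h, but well under the lowest library of 24 h. Its D was 0.60 at 2 h and -0.29 at 4 h, and with 0.997 after 12 h it was just inside the limit of 1.

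Solyc10g085230.2 had 3.71, 2.91 and 1.42 FPKM at 0 h, 4.39, 3.89 and 9.08 FPKM at 12 h and 49.8, 69.9 and 38.4 FPKM at 24 h. Its mean at 24 h, 52.7 ± 16.0 FPKM, was 19.7 times the mean of 0 h, 2.68 ± 1.16 FPKM (SD, n = 3). This was the widest ratio among the 6 genes, and the lowest library of 24 h lay well above the highest earlier library.

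In 3 more of the 6 genes the level was lower at 4 h and 12 h than at 0 h and then higher at 24 h than in any earlier library. Solyc12g042910.2 held 6.56, 8.05 and 6.79 FPKM at 0 h, 2.75, 1.46 and 3.13 FPKM at 4 h, 2.66, 3.35 and 2.26 FPKM at 12 h and 44.8, 67.9 and 43.2 FPKM at 24 h. The libraries of 2 h, 4 h and 12 h of this gene all lay below those of 0 h, as in 35.4%, 46% and 28.5% of genes tested at these times. Solyc02g036370.3 held 11.7, 22.4 and 17.3 FPKM at 0 h, 2.03, 1.29 and 2.98 FPKM at 4 h, 4.90, 4.99 and 6.33 FPKM at 12 h and 67.2, 81.6 and 223 FPKM at 24 h. Its D was -2.55 at 4 h and 2.78 at 24 h, the lowest D of the 18 genes at 4 h. Replicate 3 of 24 h was far above the other 2 libraries in this gene. Solyc03g111993.1 held 4.04, 5.93 and 4.95 FPKM at 0 h, 2.29, 1.04 and 3.85 FPKM at 12 h and 26.2, 41.4 and 38.5 FPKM at 24 h, with a D of -0.82 at 12 h and 2.61 at 24 h. The low at 4 h and 12 h in these genes came while the median change over all 18923 genes tested was -0.43 at 4 h and -0.17 at 12 h on the log2 scale.

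The last of the 6, Solyc07g005300.1, had the highest level at 24 h, 2986, 3499 and 3613 FPKM, which was 0.423% to 0.588% of the FPKM sum of these libraries. Before 24 h it was listed either at 0 or at 548 FPKM and more. The 3 libraries held 0, 1167 and 0 FPKM at 0 h, 0, 548 and 558 FPKM after 2 h, 0, 616 and 0 FPKM after 4 h and 0, 0 and 588 FPKM after 12 h. The libraries of 24 h were alike, while within each earlier group at least 1 library was at 0 and at least 1 was not. In the drought series the same gene was above 0 in all 21 libraries, at 32.3 to 134.7 FPKM. Since a 0 can be a failed estimate, no fold change is given for this gene.

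The other 12 of the 18 genes had means under 1 FPKM at 0 h. Solyc10g150109.1 had the highest D of the 18, 6.61, a value that against 0 FPKM depends on the 1 added before taking logs, and was the only one of them listed at 0 in all libraries of 0 h, 2 h, 4 h, 12 h and recovery. Its libraries of 24 h held 45.8, 51.2 and 194 FPKM. Solyc07g051890.1 held 0.0546, 0 and 0 FPKM at 0 h, 0.0549, 0.0962 and 2.87 FPKM at 12 h and 22.2, 16.3 and 79.5 FPKM at 24 h. In both genes replicate 3 of 24 h was about 4 times the mean of replicates 1 and 2 (ratios 3.99 and 4.13). For Solyc07g051890.1, replicate 3 was also the high library at 12 h.

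The 3 libraries of 24 h differed among themselves by gene. Replicate 3 was the highest in 10 of the 18 genes, replicate 2 in 6 and replicate 1 in 2. Replicate 3 was at least 2 times the mean of the other libraries in 6 genes: Solyc10g150109.1, Solyc07g051890.1, Solyc02g036370.3, Solyc07g061730.3, Solyc12g006820.1 and Solyc09g061760.1. Solyc07g061730.3 held 7.60, 4.19 and 26.6 FPKM, Solyc12g006820.1 held 5.30, 4.81 and 10.8 FPKM and Solyc09g061760.1 held 2.88, 1.77 and 16.0 FPKM at 24 h, all of them under 1 FPKM in the 3 libraries of 0 h. In Solyc09g061760.1 the libraries of replicates 1 and 2 were little above the highest earlier library, 1.55 FPKM at 12 h, so that its mean at 24 h rested on replicate 3. Replicate 3 of 12 h was the highest library before 24 h in 6 of the 17 genes with a value above 0 there. What sets replicate 3 of 12 h and of 24 h apart was not tested.

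In 11 of the 18 genes the highest library of 24 h was less than 2 times the lowest. The closest values were those of Solyc06g062550.4, with 18.6, 16.8 and 17.61 FPKM at 24 h against 0.211, 1.47 and 0.766 FPKM at 0 h, and of Solyc05g005450.2, with 5.34, 4.96 and 5.06 FPKM at 24 h against 0.0506, 0 and 0 FPKM at 0 h. Solyc07g042230.1 held 0.545, 0.481 and 0.275 FPKM at 0 h, 0, 0 and 0.270 FPKM at 4 h, 0.416, 0 and 1.96 FPKM at 12 h and 13.3, 6.89 and 18.7 FPKM at 24 h. The remaining 4 reached 4.15 to 13.0 FPKM in the libraries of 24 h. These were Solyc00g118680.2 (9.53, 13.0 and 7.42 FPKM), Solyc06g076310.1 (7.57, 7.14 and 11.8 FPKM), Solyc02g070750.1 (4.15, 7.19 and 6.54 FPKM) and Solyc07g009500.3 (4.38, 7.07 and 4.50 FPKM).

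Over the 18 genes, the median D was 0.27, -0.08, 0.29 and 2.88 for the groups of 2 h, 4 h, 12 h and 24 h, and D at 24 h ranged from 2.59 to 6.61. Means below that of 0 h were found for 6 of the 18 genes after 2 h, for 10 after 4 h and for 5 after 12 h. Of the 35 genes, the 3 just inside the limit of D at 24 h were Solyc07g009500.3 (2.66), Solyc03g111993.1 (2.61) and Solyc05g005450.2 (2.59). The 3 that met all other limits and were just outside it were Solyc07g051870.1 (2.49), Solyc00g019990.1 (2.48) and Solyc01g079620.4 (2.48).

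**Figure D2:**
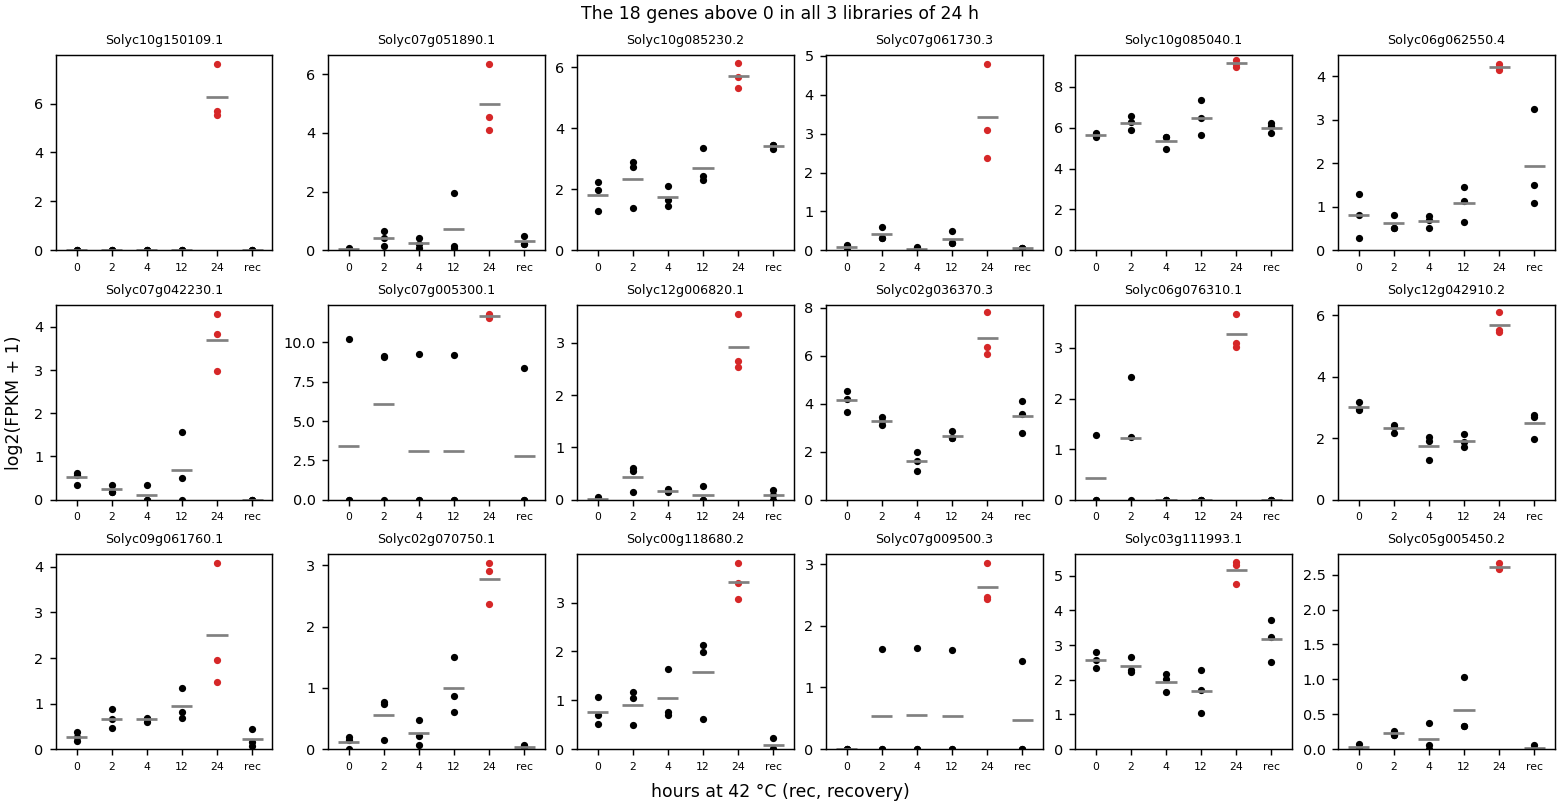
Expression level, as log2(FPKM + 1), of the 18 genes above 0 in all 3 libraries of 24 h of heat (1 panel per gene) against hours at 42 °C and in recovery (rec). Points are single libraries, red at 24 h, and grey lines are the means of the 3 points. In every panel the 3 red points lie above all points of 0 h to 12 h and above the 3 points of recovery.

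The other 17 genes were at 0 in all 12 libraries of 0 h, 2 h, 4 h and 12 h, and 15 of them were above 0 in a single library of 24 h. That library was replicate 1 for 2 genes, replicate 2 for 7 and replicate 3 for 6. The values above 0, 19 in all, ranged from 16.5 to 1071 FPKM with a median of 43.6 FPKM. A mean of 5 FPKM over 3 libraries needs 15 FPKM in 1 library when the others are at 0, so the low end of this range was set by the choice of the genes. No mean with SD is given for them, and none reached 1 FPKM in 3 or more heat libraries.

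In replicate 3 only, Solyc03g058150.1 held 1071 FPKM, Solyc09g074700.2 94.3 FPKM, Solyc06g051330.1 43.6 FPKM, Solyc09g083135.1 25.1 FPKM, Solyc05g024360.1 22.5 FPKM and Solyc06g036660.1 21.6 FPKM. In replicate 2 only, Solyc01g079280.1 held 548 FPKM, Solyc11g020730.1 441 FPKM, Solyc10g050770.1 252 FPKM, Solyc00g181240.1 55.8 FPKM, Solyc03g093810.1 36.5 FPKM, Solyc00g020030.1 24.9 FPKM and Solyc05g023830.1 16.8 FPKM. In replicate 1 only, Solyc06g008470.3 held 111 FPKM and Solyc05g046370.1 17.02 FPKM. Solyc00g153980.1 held 188, 874 and 0 FPKM and Solyc07g032390.2 16.5, 19.3 and 0 FPKM in replicates 1, 2 and 3 of 24 h. High values in a lone library were thus spread over all 3 libraries of 24 h.

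The same pattern was counted over all genes and libraries. Genes at 15 FPKM or more in a single heat library and at 0 in the other 17 numbered 6, 7 and 8 for the 3 libraries of 24 h and 1 to 10 for the 15 other libraries. The highest number, 10, was in replicate 2 of 0 h, and 3 of the 15 other libraries had 6 or more. Summed over the 3 libraries of a group, the number was 21 at 24 h, 19 at 0 h and 7 to 15 in the other groups. Counting any value above 0, replicate 3 of 24 h had the most genes found in a lone library, 112, against 30 to 91 in the other libraries. These counts were not tested.

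**Figure D3:**
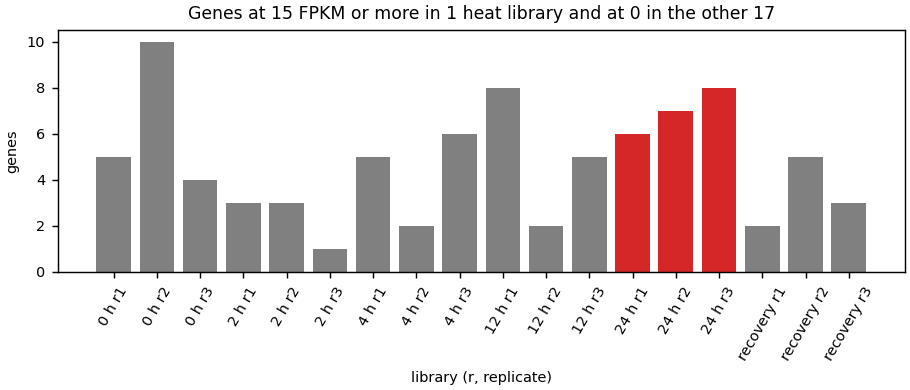
Number of genes (y axis) at 15 FPKM or more in a single heat library and at 0 in the other 17, by the library that held the value (x axis; r, replicate). The 3 libraries of 24 h are red, with 6, 7 and 8 genes, and the 15 other libraries are grey, with 1 to 10 genes.

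In recovery, 16 of these 17 genes were at 0 in all 3 libraries. The exception was Solyc00g020030.1, at 26.7 FPKM in replicate 3 of recovery after 24.9 FPKM in replicate 2 of 24 h. Across the drought series 7 of the 17 were at 0 in all 21 libraries and 10 were above 0 in 1 to 20 of them. Solyc09g074700.2, above 0 in 20 drought libraries, held 13.8, 7.10 and 8.39 FPKM at 0 d and 2.63, 9.34 and 14.2 FPKM at 5 d. Solyc11g020730.1 and Solyc10g050770.1 were above 0 in 9 and 10 drought libraries and were highest in replicate 2 of 3 d, at 103.8 and 61.8 FPKM, the library with the most genes at 0. For 8 of the 17 at least 1 library of 0 d of drought was above 0, so these genes were measurable in unheated leaves of the other series.

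Whether the level went back after the heat was asked by comparing recovery with 0 h, a comparison whose recovery libraries took no part in choosing the genes, although the libraries of 0 h did. All 18 genes with values in every library of 24 h passed the minimum on low values, 8 of them only with the libraries of 24 h, and all 18 had the 3 recovery libraries below the 3 libraries of 24 h. That separation was found in 28.8% of genes tested, and for these genes it was favoured by their choice as high at 24 h. The median D of the 18 in recovery was -0.02, with 10 genes below and 8 at or above the mean of 0 h, and 3 genes were at 0 in all recovery libraries: Solyc10g150109.1, Solyc07g042230.1 and Solyc06g076310.1. Against 0 h, 2 of the 18 were called by limma, both higher. A call needed an adjusted p of at most 0.05 together with a log2 fold change of 1 or more in either direction. Over all genes tested, 24.6% were called in this comparison, 1.23% as higher and 23.3% as lower. Across the genes tested here the median change was -0.535 on the log2 scale, and median-ratio scaling of the libraries moved it to -0.01 and the shares called to 6.01% higher and 7.74% lower, with 3 of the 18 then called, all higher. With a pseudocount of 0.1, limma called 4 of the 18, 2 higher and 2 lower, and the share over all genes was not counted. The lower ones were Solyc00g118680.2 (-2.46, limma adjusted p = 0.0101) and Solyc07g042230.1 (-2.38, limma adjusted p = 0.0377). Solyc07g042230.1 reached 1 FPKM only in the libraries of 24 h and in 1 library of 12 h. It was thus tested only through the heat groups it was chosen on, and nothing is read from its call. The 12 genes under 1 FPKM at 0 h have little room to be lower on the log2(FPKM + 1) scale, so the median of the 18 is not set against that of all genes.

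Solyc10g085230.2 stayed above its level before heat. The libraries of recovery held 9.01, 9.80 and 9.94 FPKM, all above 3.71, 2.91 and 1.42 FPKM at 0 h and all below the libraries of 24 h. The log2 fold change was 1.58 ± 0.39 (SE; limma, adjusted p = 0.00502), and the exact permutation test, two-sided, gave p = 0.1, the smallest that 3 libraries against 3 allow.

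Solyc06g062550.4 was called with a log2 fold change of 1.15 ± 0.41 (SE; limma, adjusted p = 0.0355; exact permutation p = 0.2). Its recovery libraries held 1.84, 8.46 and 1.14 FPKM against 0.211, 1.47 and 0.766 FPKM at 0 h, so the groups overlapped and a single library was high. Without replicate 2 of recovery the log2 fold change was 0.50 (limma, adjusted p = 0.205). The call was also lost without replicate 1 of 0 h (0.89, adjusted p = 0.144) and without replicate 3 of 0 h (1.16, adjusted p = 0.0776). It was lost too with no filter (limma, adjusted p = 0.05465) and with only the 2 groups in the fit (limma, adjusted p = 0.06225). Over 13 alternatives the adjusted p of limma ranged from 0.0105 to 0.205.

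Groups that did not overlap with 0 h were found in recovery for 3 genes that were higher and 3 that were lower, where 6.03% and 55.6% of genes tested had such groups. The higher ones were Solyc10g085230.2, Solyc10g085040.1 (72.8, 65.7 and 53.2 FPKM in recovery) and Solyc07g051890.1 (0.163, 0.410 and 0.168 FPKM in recovery). The last of these reached 1 FPKM only in the libraries of 24 h and in 1 library of 12 h, so it was tested only through the heat groups it was chosen on, and nothing is read from its place among the higher genes. The lower ones were Solyc12g042910.2 (5.47, 5.76 and 2.97 FPKM), Solyc00g118680.2 (0, 0.168 and 0 FPKM) and Solyc07g042230.1 (0, 0 and 0 FPKM). Solyc07g042230.1 too was tested only through the heat groups it was chosen on, so nothing is read from its place among the lower genes. With the pseudocount of 1, none of the genes without overlap other than Solyc10g085230.2 was called by limma.

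In drought, D at 5 d lay between -0.75 and 0.96 over the 35 genes, inside the limits of the choice, and was exactly 0 for 10 of them. Many had low levels throughout the drought series: 13 of the 18 genes measured in all libraries of 24 h had a mean under 1 FPKM at 0 d, and 6 were under 1 FPKM in all 21 drought libraries. Those 6 were Solyc07g061730.3, Solyc06g062550.4, Solyc12g006820.1, Solyc06g076310.1, Solyc02g070750.1 and Solyc05g005450.2. Of the 35 genes, 16 reached 1 FPKM in 3 or more drought libraries and were tested, 9 of the 18 and 7 of the 17.

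The comparisons of 1 d to 4 d and of re-watered plants with 0 d share the libraries of 0 d, which were also used to choose the genes. At 1 d, 1 of the 16 genes was called by limma, as higher, where 15.1% of genes tested were called and 6.79% as higher. At 2 d, 1 of 16 was called, as higher, where 23.9% of genes were called and 11% as higher. At 3 d and at 4 d limma called 0 of 16, where 27.7% and 29.8% of genes were called, and 3 of 16 had an unadjusted p under 0.05 at each of these times. With no minimum on the fold change 2 were called at 3 d and 3 at 4 d. Shares over all genes at these looser limits were not counted, so nothing is read from these counts. At 3 d, Solyc10g050770.1 was called without replicate 1 (log2 fold change 2.98, limma adjusted p = 0.0373) and Solyc11g020730.1 without replicate 3 (4.49, limma adjusted p = 0.0277), while without replicate 2, in which both were highest, limma called 0. At 4 d, Solyc12g042910.2 (-1.05, limma adjusted p = 0.000838) and Solyc05g024360.1 (-2.14, limma adjusted p = 0.0275) were called without replicate 2 of 0 d. The median log2 fold change of the 16 was -0.08, -0.02, -0.04 and -0.19 at 1 d, 2 d, 3 d and 4 d, and that of all genes tested was 0.07, 0.13, 0.17 and 0.23. With median-ratio scaling the medians of all genes were -0.03, -0.04, -0.02 and -0.01, and those of 17 genes of the group -0.10, -0.09, -0.225 and -0.15. D at 5 d was limited against the same libraries of 0 d, so small changes and few calls at 1 d to 4 d were favoured by the choice. The medians of the group are thus not set against those of all genes. Higher genes made up 45.9%, 46.6% and 48.9% of all calls at 2 d, 3 d and 4 d, and 33.1%, 34% and 33.1% under median-ratio scaling.

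The gene called at 1 d and 2 d was Solyc07g042230.1. It held 3.56, 3.30 and 0.432 FPKM at 0 d, 6.42, 4.24 and 8.89 FPKM at 1 d, 4.46, 4.67 and 6.42 FPKM at 2 d and 7.48, 2.70 and 4.10 FPKM at 5 d. The libraries of 1 d and of 2 d all lay above those of 0 d, where replicate 3 was far below the other 2. Such higher groups were found in 35.1% of genes tested at 1 d and in 36.6% at 2 d. The log2 fold change was 1.26 ± 0.37 at 1 d (SE; limma, adjusted p = 0.0104) and 1.01 at 2 d (limma, adjusted p = 0.0253), with an exact permutation p of 0.1 for both. Without replicate 3 of 0 d it was 0.72 at 1 d (limma, adjusted p = 0.0682) and 0.47 at 2 d (limma, adjusted p = 0.197). Both calls were also lost without replicate 3 of the drought group (1.04, adjusted p = 0.0556, at 1 d and 0.87, adjusted p = 0.0815, at 2 d). They were lost too with only the 2 groups in the fit (limma, adjusted p = 0.05743 at 1 d and 0.0855 at 2 d). Median-ratio scaling lost the call at 2 d (limma, adjusted p = 0.06214) and kept that at 1 d. Over 12 alternatives the adjusted p of limma ranged from 0.00571 to 0.0682 at 1 d and from 0.0105 to 0.197 at 2 d.

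After re-watering this gene fell to 0.0922, 0 and 0 FPKM. Against 0 d, 1 of 16 genes was called by limma, as lower, where 11.7% of genes tested were called and 6.41% as lower, and that gene was Solyc07g042230.1 (log2 fold change -1.56, adjusted p = 0.00308). Against 4 d, a comparison that shares no library with the choice of the genes, 1 of 16 was called, again Solyc07g042230.1 as lower. Over all genes tested 28.5% were called here and 13.4% as lower. Median-ratio scaling called 5 of 17 genes of the group here, 4 of them higher. With that scaling 18.3% of all genes tested were called as higher and 9.67% as lower. The libraries of 4 d held 4.00, 2.73 and 3.05 FPKM, all above those of re-watered plants, as in 43.7% of genes tested. The log2 fold change was -2.04 ± 0.37 (SE; limma, adjusted p = 0.00012; exact permutation p = 0.1). This gene was also at 0 in the 3 recovery libraries of the heat series. There it was already low at 0 h, at 0.545, 0.481 and 0.275 FPKM. The call was kept in all 13 alternatives against 4 d and in the 11 against 0 d in which the gene was tested. With only re-watered plants and 0 d in the fit it did not reach 1 FPKM in 3 libraries.

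Several genes passed an adjusted p of 0.05 in limma with a log2 fold change under 1 in size, and so were not called. For the low genes among them this size depends on the 1 added before taking logs. A pseudocount of 0.1 led to calls by limma at 4 d for Solyc12g042910.2 (-1.16) and Solyc00g118680.2 (1.41). Re-watered plants added Solyc00g118680.2 (1.41) and Solyc03g111993.1 (1.655) against 0 d. Against 4 d they added Solyc03g111993.1 (1.64) and Solyc12g042910.2 (1.22). Shares over all genes were not counted at this setting. Solyc12g042910.2 held 6.26, 3.92 and 4.97 FPKM at 0 d and 2.03, 2.38 and 2.12 FPKM at 4 d, then 5.24, 5.67 and 4.68 FPKM after re-watering. Its log2 fold change against 0 d was -0.76 at 1 d, -0.74 at 2 d, -0.61 at 3 d and -0.91 at 4 d (limma, adjusted p = 0.00709, 0.00573, 0.0168 and 0.000965), and 0.96 for re-watered plants against 4 d (adjusted p = 0.000654). In the heat series the same gene was below its level of 0 h at 2 h, 4 h and 12 h and above it at 24 h, whereas at 5 d of drought it was at 4.37, 3.11 and 7.71 FPKM, overlapping the libraries of 0 d.

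Solyc10g085040.1 held 28.0, 27.8 and 25.9 FPKM at 0 d, 18.1, 20.6 and 17.9 FPKM at 4 d and 37.8, 30.3 and 32.3 FPKM after re-watering. Its log2 fold change was -0.51 at 4 d against 0 d (limma, adjusted p = 0.0104) and 0.79 for re-watered plants against 4 d (adjusted p = 0.000388). Solyc02g036370.3 held 29.8, 37.4 and 32.2 FPKM at 0 d and 21.6, 16.9 and 20.9 FPKM at 1 d, and the log2 fold change was -0.72 (limma, adjusted p = 0.00737). At 5 d this gene was at 40.2, 45.8 and 69.6 FPKM, with a D of 0.63. These libraries lay above all libraries of 0 d, as in 39.1% of genes tested.

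Solyc03g111993.1 and Solyc10g085230.2 were low through the drought and higher after re-watering. Solyc03g111993.1 held 0.599, 0.358 and 0.861 FPKM at 4 d and 2.18, 2.69 and 1.36 FPKM after re-watering, with log2 fold change 0.93 ± 0.26 against 4 d (SE; limma, adjusted p = 0.00495). Solyc10g085230.2 held 0.0213, 0.0510 and 0.154 FPKM at 4 d and 0.999, 1.42 and 1.08 FPKM after re-watering. It missed the minimum of 1 FPKM in 3 libraries by a small margin and was not tested. With no such minimum its log2 fold change against 4 d was 1.01 (limma, adjusted p = 7.74e-07). That fit also takes in all genes near 0 FPKM, where this gene lay at 4 d. The share over all genes was not counted for it, so nothing is read from this p-value. Solyc00g118680.2 held 0.462, 0.782 and 0.469 FPKM at 0 d, 1.32, 1.91 and 1.76 FPKM at 4 d and 1.34, 2.04 and 1.61 FPKM after re-watering, with a log2 fold change of 0.76 against 0 d at both times (limma, adjusted p = 0.00804 at 4 d and 0.0165 after re-watering). It also had the highest D of the 35 genes at 5 d of drought, 0.96, just inside the limit.

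**Figure D4:**
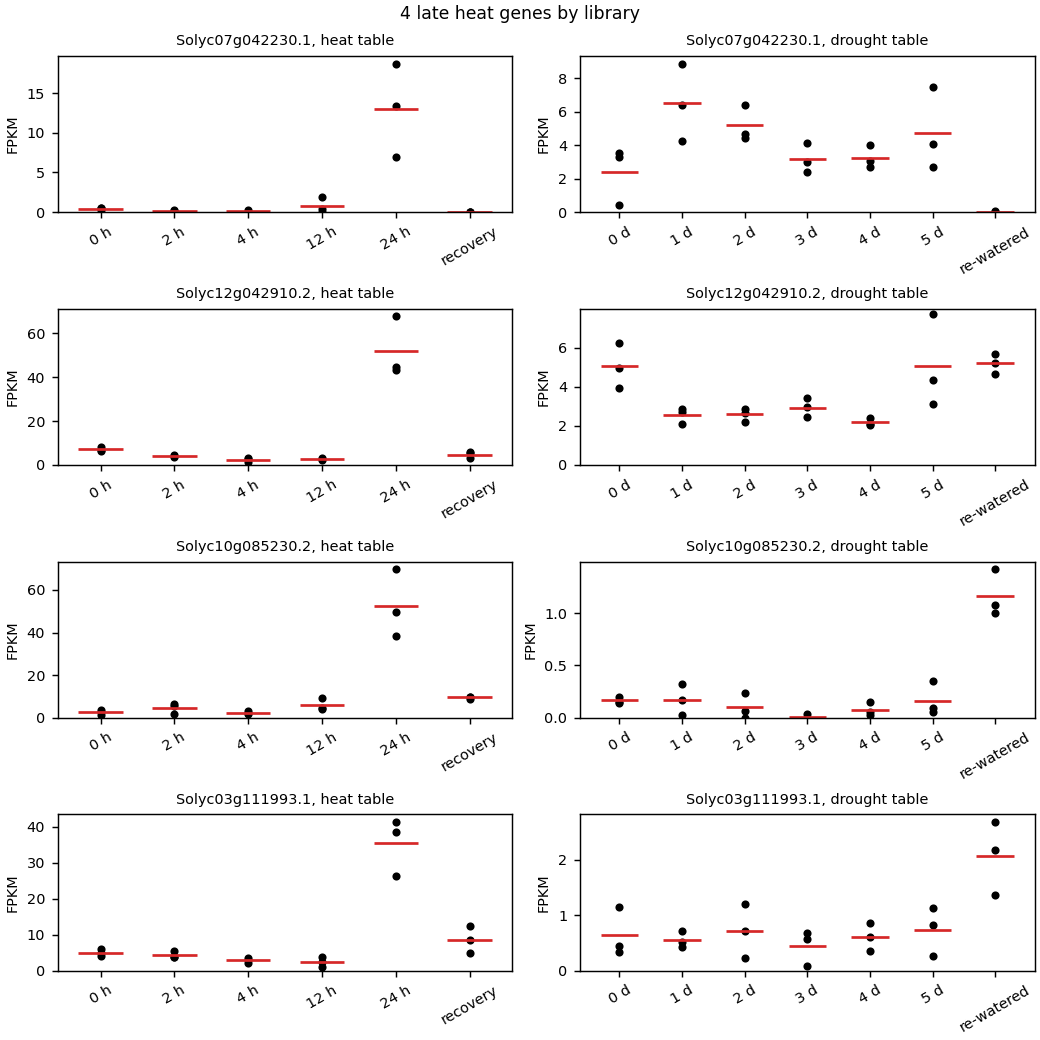
Expression level in FPKM of Solyc07g042230.1, Solyc12g042910.2, Solyc10g085230.2 and Solyc03g111993.1 in each library (points) of the heat table (left) and the drought table (right), with red lines at the mean of 3 libraries. Scales differ between panels, and the 2 tables were normalized separately. Solyc07g042230.1 was near 0 in both recovery groups and already under 1 FPKM at 0 h of heat, and Solyc10g085230.2 was highest in the drought series after re-watering.

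**Figure D5:**
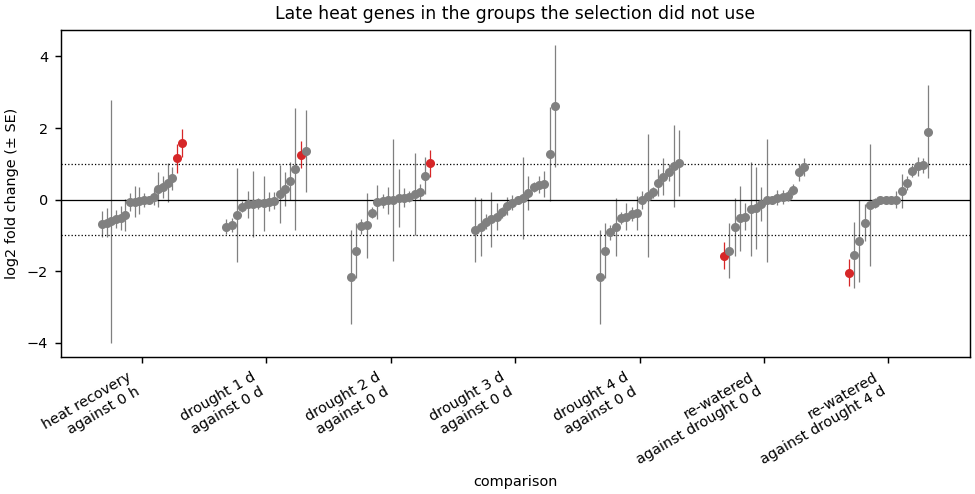
Log2 fold change on the log2(FPKM + 1) scale with its SE for each tested gene in the 7 comparisons with groups that took no part in the choice of the genes (18 genes in the heat comparison, 16 in each drought comparison). Red points were called by limma, with an adjusted p of at most 0.05 and a value beyond the dotted lines at 1 and -1: 2 in heat recovery, 1 each at 1 d and 2 d of drought and 1 in each re-watered comparison.

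By their IDs the 35 genes lay on chromosomes 1 (1 gene), 2 (2), 3 (3), 5 (4), 6 (5), 7 (6), 9 (3), 10 (4), 11 (1) and 12 (2), and 4 had IDs of sequence on no chromosome. The latter were 11.4% of the 35 genes, 1.51% of all listed genes and 0.97% of the genes with a mean of at least 5 FPKM at 24 h. Of the 4, 1 was among the 18 genes and 3 among the 17. Gene models of version 1 made up 24 of the 35 genes (68.6%), 10 of the 18 and 14 of the 17, against 34.5% of all listed genes and 12.9% of those with a mean of at least 5 FPKM at 24 h. These shares were not tested.

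None of the 206 genes in the study's list of genes that are in the tables was among the 35. The group is only 35 of the 34075 listed genes, so nothing is read from this. The gene the study is about, SlBBX31 (Solyc06g063280.1), a zinc-finger protein with a B-box domain, had a D of 5.03 at 24 h but was outside the group, with D of 1.28 at 2 h, 1.43 at 4 h and 1.11 at 5 d of drought. ABF3, a transcription factor of abscisic acid signalling, had a D of 3.28 at 24 h and of 1.37 at 2 h. HSP90, a heat shock protein, already had a D of 2.13 at 2 h.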

How the data were processed

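RNA was sequenced from tomato leaves in a heat series (18 libraries) and a drought series (21 libraries). For each series the deposited values were FPKM, computed by the authors per gene and library. Trimmomatic, TopHat and Cuffdiff are named in the submitters' processing notes, and the methods of the study give a paired-end, stranded library type and a single place kept per read, so values of near-identical genes are uncertain. Each table was taken to have its own normalization, and tests were kept within a table. The numbers of the untreated drought columns could not be tied to the labels and pair nothing.

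The 35 genes, and all lists, were chosen with earlier results of these data known. Tests ran on log2(FPKM + 1), so fold changes of low genes are understated, in genes that reached 1 FPKM in 3 or more libraries (18923 in heat, 19963 in drought). All groups of a table entered 1 fit of limma 3.58.1 (R 4.3.3), moderated by empirical Bayes with trend, with Benjamini-Hochberg adjustment over all genes tested. A call needed an adjusted p of at most 0.05 together with a log2 fold change of 1 or more in either direction. Single genes were also compared by an exact two-sided permutation test over 20 relabellings. The fit was tested on simulated data. Only groups that took no part in the choice were tested, and 0 h or 0 d, which did, is the reference of all but 1 of these comparisons.

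The alternatives were median-ratio scaling, a pseudocount of 0.1, all genes without a filter, a fit of the 2 groups alone, no minimum fold change, the replicate number as a block, and each library left out in turn. Leaving out replicate 3 of 12 h and of 24 h of heat together, and replicate 2 of 3 d of drought from every drought comparison, was added after seeing the data. The rule for named genes relied on gene names. None of the IDs matched the RefSeq table used (assembly SLM_r2.1), so all 35 genes are accounted for by ID, and those described singly were chosen after their values were seen. Lists by product name, markers of other leaf cell types and promoter motifs were not run, and no sequence is printed. Supplementary values of the study were not used here.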

Additional observations from a re-analysis of the deposited data

How the results depend on the processing

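Depth is unknown, a 0 can be a failed estimate, and 17 of the 35 genes rested on 1 or 2 libraries of 24 h. Median-ratio scaling chose 57 genes, 31 of them among the 35. The other choices gave 26 genes with a pseudocount of 0.1 (22 shared) and 27 with the median of 3 libraries (14 shared, 12 of the 18 and 2 of the 17). Leaving out each library gave 30 to 48, and leaving out replicate 3 of 12 h and of 24 h gave 44 (25 shared).

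Shares over all genes were counted for the main settings and median-ratio scaling only. With that scaling 7.98% of genes were called as higher and 16.1% as lower at 2 d of drought. At 4 d of drought these shares were 9.42% and 19%. The other counts below show only how far the calls depend on the settings. Of the tested genes, the number called in recovery against 0 h was 2, and 4 with a pseudocount of 0.1, 1 with no filter, 1 with only the 2 groups in the fit, and 1 to 2 without single libraries. For drought against 0 d the number at 1 d was 1, and 0 with only the 2 groups, 3 with no minimum fold change and 0 to 1 without single libraries. At 2 d it was 1, and 0 with median-ratio scaling, 0 with only the 2 groups, 2 with no minimum fold change and 0 to 2 without single libraries. At 3 d it was 0, and 2 with no minimum fold change and 0 to 1 without single libraries. At 4 d it was 0, and 2 with a pseudocount of 0.1, 1 with median-ratio scaling, 1 with only the 2 groups, 3 with no minimum fold change and 0 to 2 without single libraries. For re-watered plants against 0 d it was 1, and 3 with a pseudocount of 0.1, 0 with only the 2 groups, 3 with no minimum fold change and 1 to 2 without single libraries. Against 4 d it was 1, and 3 with a pseudocount of 0.1, 2 with no filter, 5 with median-ratio scaling, 2 with only the 2 groups, 5 with no minimum fold change and 1 to 3 without single libraries. The genes added when single libraries were left out were Solyc05g024360.1 at 2 d (without replicate 2 of 0 d) and, beside those named for 3 d and 4 d, Solyc03g111993.1 and Solyc12g042910.2 for re-watered plants, at log2 fold changes of 1.01 to 1.12, just past the minimum. No gene called with the main settings changed direction. The balance of calls did change: 2 higher and 2 lower in recovery with a pseudocount of 0.1, and 4 higher and 1 lower for re-watered plants against 4 d with median-ratio scaling. In the latter, 18.3% of all genes tested were called as higher and 9.67% as lower. Nothing is read from the lower call of Solyc07g042230.1 in recovery. The median of the 18 genes in recovery went from -0.02 to 0.01 with that scaling. The cause of the differences was not tested.

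With the replicate number as a block, the counts stayed at 2 for recovery and 1 for re-watered plants against 4 d. Deviations of same-numbered libraries correlated at -0.107 to -0.000412 in the first and -0.201 to 0.0422 in the second, so the numbers were not taken to pair the libraries.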

Other observations

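Genes next to the 35 by ID were looked at after the values were seen, and they are given as values with no test. Of 186 pairs of a gene of the 35 that has a chromosome in its ID and a gene listed within 3 places of it, 8 (4.30%) had a neighbour with D of at least 2 at 24 h, against 1.96% of all genes with a chromosome in the ID. Solyc07g051930.3, near Solyc07g051890.1, held 19.1, 13.9 and 68.0 FPKM in replicates 1, 2 and 3 of 24 h, and it stayed outside the 35 with a D of 1.33 at 12 h. Solyc07g051870.1, more than 3 places from the same gene and so not counted above, was just outside the limit of D at 24 h. It held 1.91, 1.12 and 12.1 FPKM. In all 3 of these genes replicate 3 of 24 h was the high library.

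Solyc06g062540.3, next to Solyc06g062550.4, held 12.2, 6.68 and 12.4 FPKM at 24 h, with a D of 3.13. In recovery it held 0.815, 8.46 and 0.545 FPKM, so the library that was high for Solyc06g062550.4 in recovery was high for its neighbour too. Solyc03g111997.1, next to Solyc03g111993.1, held 1.88, 3.03 and 2.79 FPKM at 0 h and 9.13, 22.3 and 21.4 FPKM at 24 h, with a D of -0.79 at 12 h and 2.38 at 24 h. Both genes of this pair were lowest in replicate 1 among the libraries of 24 h. The other neighbours with D of at least 2 at 24 h mostly rose earlier. Solyc07g042250.3 had a D of 2.34 at 2 h, and Solyc12g042950.2 had 2.97 at 12 h and 2.24 at 24 h. Solyc01g079290.1 and Solyc03g093800.1 had 2.22 and 2.41 at 12 h and were lowest in replicate 3 of 24 h. Solyc10g085250.2 had 0.35 at 12 h and 2.15 at 24 h.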
